A study of Mus musculus with 4 samples.

Results

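The genes described here are 39 genes of macrophages, monocytes and dendritic cells, read in RNA from sorted lung type 2 innate lymphoid cells (ILC2s). The members were the rows of the count table and of the normalized table whose gene symbol equalled a name on a list of macrophage, monocyte and dendritic cell genes, and all 39 were found among the 22558 genes of the count table. Of these 39, 31 passed the filter on low values and 8 did not (Trem2, Tlr7, Clec10a, Clec4a1, Ms4a7, Flt3, Siglech and Itgad). The study asked how loss of the adhesion molecule ICAM-1 alters activated ILC2s. The 4 libraries were 2 from C57BL/6 wild-type mice (WT) and 2 from mice labelled ICAM-1 KO on the C57BL/6 background (the KO-labelled libraries), all 6 weeks old. Every mouse, the WT controls included, had received 3 intranasal doses of 0.5 µg recombinant mouse IL-33, and the lungs were collected on day 4. Each library was a pool of cells from 4 mice. The labels describe the cells as ILC2s, and the study's methods describe a sort of CD45+ ST2+ CD127+ cells that lacked the myeloid antigens CD11b, CD11c and Gr-1, the T cell antigens CD3ε, CD4, CD5, TCRβ and TCRγδ, the B cell antigen CD45R, the erythroid antigen Ter119 and the IgE receptor FcεRIα.

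Mononuclear phagocytes take up particles, kill microbes and present antigen. Monocytes leave the blood to become macrophages or dendritic cells in tissue, the receptor CSF1R keeps most macrophages alive, and the transcription factor PU.1 switches on many of their genes. The lung holds alveolar macrophages in the airspace, interstitial macrophages in the tissue, and conventional and plasmacytoid dendritic cells, several of which carry the CD11b or CD11c that the sort set out to remove.

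Total counts ran from 24796148 to 28782471 per library. Icam1, the targeted gene, had 2579 counts in WT 1, 2630 in WT 2, 2812 in ICAM-1 KO 1 and 3453 in ICAM-1 KO 2, with a log2 fold change of 0.33 (SE 0.108, adjusted p = 0.0745, edgeR quasi-likelihood test with Benjamini-Hochberg adjustment over 11711 genes). The RNA of the targeted gene was thus not lower in the KO-labelled libraries. RNA counts do not read the protein, and the study's flow staining of ICAM-1 protein on ILC2s of this genotype was not analysed here. Genes of ILC2s were abundant in all 4 libraries: Gata3, the master transcription factor of these cells, had 12252 to 16261 counts, and Il1rl1, which encodes ST2, had 18964 to 23848. Pooled mice and 2 libraries a group do not show the spread between animals, and the p-values measure the spread between these 4 libraries. Markers of several other cell types also stood higher in the KO-labelled libraries, as given further on. More cells of a type and more RNA per cell cannot be told apart in bulk RNA.

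The myeloid genes made up a small share of the RNA, and a larger one in both KO-labelled libraries. Their summed counts were 20432 of all counts in WT 1 (0.0750%, 95% Wilson interval 0.0740 to 0.0760%), 23923 in WT 2 (0.0831%, 0.0821 to 0.0842%), 36398 in ICAM-1 KO 1 (0.147%, 0.145 to 0.148%) and 48648 in ICAM-1 KO 2 (0.177%, 0.176 to 0.179%). These intervals cover counting error only. Lyz2 alone gave 25.1%, 22.7%, 27.2% and 37.2% of those counts, and without it the shares were 0.0562%, 0.0643%, 0.107% and 0.111%. The gap between the groups was therefore present without Lyz2, while most of the gap between the KO-labelled libraries went with that gene.

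Of the 39 genes, 18 rose in the KO-labelled libraries at an adjusted p under 0.05, 0 fell, 13 did not pass and 8 were not tested, where 8.8% of all genes tested rose and 4.97% fell. With a fold change of at least 2 as well, 14 rose and 0 fell, against 4.94% and 0.538% of all genes tested. Of the 18, Marco and Mpeg1 met the filter on low values through the KO-labelled libraries, as described below. DESeq2 and limma also called 0 lower. An unadjusted p under 0.05 was reached by 22 members. Without the filter on low counts, all 39 entered the fit, their median log2 fold change was 1.01 against 0.03 over all genes, and 36 were positive. In that fit 9 rose, where 1.51% of all genes did. On the normalized counts, both KO-labelled libraries lay above both WT libraries for 30 of the 39 genes, below them for 0, and overlapped with them for 9. Over all genes of the normalized table, 29.6% lay above and 24.3% below, and over the genes tested 28.3% and 31.3%. The plot of the 39 genes by library shows this spread.

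**Figure D1:**
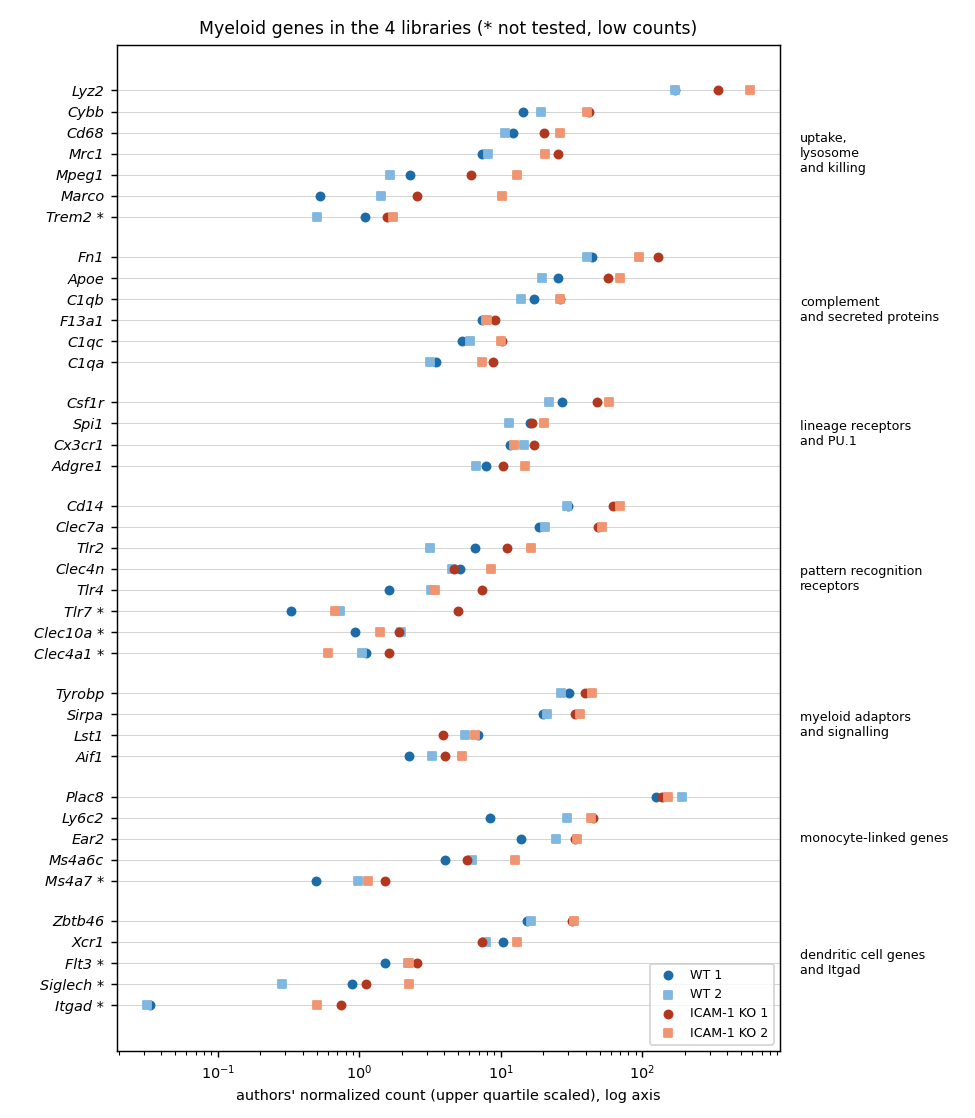
Normalized count (log axis) of each of the 39 myeloid genes in WT 1, WT 2, ICAM-1 KO 1 and ICAM-1 KO 2, grouped by role, with 1 point per library and an asterisk for the 8 genes that were not tested. Both ICAM-1 KO points lie to the right of both WT points for 30 of the 39 genes and to the left for 0.

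The KO-labelled libraries were not alike. Of the 39 genes, ICAM-1 KO 2 was the highest library for 22, ICAM-1 KO 1 for 14, WT 2 for 2 and WT 1 for 1. Among the 18 genes that rose, ICAM-1 KO 2 was the highest for 14 and ICAM-1 KO 1 for 4. Over the 39 genes, the log2 difference of ICAM-1 KO 2 over ICAM-1 KO 1 had a median of 0.11 and ran from -2.89 to 2.00, and that of WT 2 over WT 1 had a median of 0.02 and ran from -1.65 to 1.83. The number of members that rose was 10 without WT 1, 12 without WT 2, 19 without ICAM-1 KO 1 and 14 without ICAM-1 KO 2.

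Per length of transcript (FPKM computed from the counts and the exon length, means of 2 libraries), the highest levels in both groups were those of Lyz2 (143 in WT, 402 in the KO-labelled libraries), Plac8 (109 and 105), Tyrobp (47.1 and 72.3), Ear2 (29.4 and 54.5) and Cd14 (18.9 and 43.7). For scale, Gata3 stood at 143 and 132 on the same measure. Csf1r stood at 4.69 and 10.5 and Adgre1 at 2.46 and 4.48. At the low end were Tlr7 at 0.134 and 0.791 and Itgad at 0 and 0.151.

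Counts below are given in the order WT 1, WT 2, ICAM-1 KO 1 and ICAM-1 KO 2. Fold changes are log2 values of ICAM-1 KO over WT. Each comes with a standard error and the Benjamini-Hochberg adjusted p of the edgeR quasi-likelihood test over all 11711 genes. Standard errors (SE) were derived from that test, as the absolute log2 fold change divided by the square root of its F statistic. Whether groups overlap was read on normalized counts.

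Of 7 genes of uptake, lysosome and killing, 6 were tested and all 6 rose, each more than 2-fold. Lyz2, which encodes the lysozyme of macrophages and neutrophils, had 5130, 5423, 9897 and 18105 counts. Its normalized count was 171 ± 1.67 in WT and 460.2 ± 165 in the KO-labelled libraries (mean ± SD, n = 2 each), and it rose by a log2 value of 1.46 (SE 0.203, adjusted p = 0.00324). The WT libraries were nearly equal, and ICAM-1 KO 2 was the highest by a wide margin. Mrc1, the mannose receptor CD206, had 221, 257, 730 and 641 counts and rose by 1.59 (SE 0.229, adjusted p = 0.00372). Cybb, the gp91phox subunit of the phagocyte NADPH oxidase, had 436, 607, 1211 and 1272 counts and rose by 1.32 (SE 0.178, adjusted p = 0.00290). For Mrc1 and Cybb the gap between the groups was wider than the gap within either.

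The lysosomal glycoprotein gene Cd68 had 367, 340, 584 and 829 counts and rose by 1.06 (SE 0.223, adjusted p = 0.0169). Mpeg1, which encodes the pore-forming perforin-2 of phagocytes, had 68, 51, 176 and 411 counts and rose by 2.36 (SE 0.492, adjusted p = 0.0165). Marco, a scavenger receptor of alveolar macrophages, had 15, 44, 73 and 321 counts and rose by 2.79 (SE 0.793, adjusted p = 0.0487), the largest fold change of the 31 tested members. The groups did not overlap for any of these genes, but ICAM-1 KO 2 stood far above ICAM-1 KO 1 for Mpeg1 and Marco. WT 1 and WT 2 had normalized counts of 0.528 and 1.42 for Marco and 2.28 and 1.65 for Mpeg1. At such levels in every library neither gene would have met the summed filter of 10. Both were thus tested because of their values in the KO-labelled libraries, and their calls carry that selection. Marco had a log2 fold change of 1.42 without ICAM-1 KO 2 (adjusted p = 0.244), 2.24 without WT 1 (adjusted p = 0.194), 3.73 without WT 2 (adjusted p = 0.117) and 3.46 without ICAM-1 KO 1, where it passed (adjusted p = 7.37e-05). Cd68 also missed the threshold without WT 1 (adjusted p = 0.0588), WT 2 (0.0796) or ICAM-1 KO 2 (0.0770), and Mpeg1 without WT 1 (0.0658) or WT 2 (0.0917). Without ICAM-1 KO 2, Mpeg1 still passed at a smaller log2 fold change of 1.68 (adjusted p = 0.0466). Trem2, a lipid-sensing receptor of macrophages, had 32, 15, 44 and 53 counts and was not tested.

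Of 6 genes for complement and secreted proteins, 4 rose and 2 did not pass, and both KO-labelled libraries lay above both WT libraries for all 6. Fn1, fibronectin, had 1331, 1276, 3713 and 2975 counts and rose by 1.43 (SE 0.152, adjusted p = 0.00112). Apoe, the lipid carrier apolipoprotein E, had 764, 615, 1651 and 2196 counts and rose by 1.54 (SE 0.173, adjusted p = 0.00143). The gap between groups was wider than the gap within them for both genes, and ICAM-1 KO 1 was the higher library for Fn1 while ICAM-1 KO 2 was for Apoe.

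C1qa, C1qb and C1qc encode the chains of complement C1q, which macrophages secrete, and lie next to each other on mouse chromosome 4 (mm10, C1qb chr4:136880129-136886187, C1qc chr4:136889804-136893065 and C1qa chr4:136895917-136898803, all on the minus strand). C1qa had 104, 99, 252 and 229 counts and rose by 1.31 (SE 0.325, adjusted p = 0.0319). C1qb had 523, 439, 753 and 827 counts and rose by 0.78 (SE 0.190, adjusted p = 0.0294). C1qc had 161, 190, 295 and 315 counts, a log2 fold change of 0.86 (SE 0.273, adjusted p = 0.0675) that missed the threshold. The groups were apart for all 3 chains, with similar values within each group. The calls of C1qa and C1qb did not hold without each library: C1qa had an adjusted p of 0.0902 without WT 1, 0.116 without WT 2 and 0.110 without ICAM-1 KO 1, and C1qb one of 0.0526, 0.118, 0.0578 and 0.0720 without WT 1, WT 2, ICAM-1 KO 1 and ICAM-1 KO 2. F13a1, the A chain of coagulation factor XIII and a marker of monocytes, had 224, 246, 261 and 251 counts (0.19, SE 0.268, adjusted p = 0.681), and all 4 libraries were close together.

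To show promoters of members that rose or neighboured one that did, sequences before the RefSeq start sites (GRCm38.p6) of C1qb, C1qc, Clec7a and Apoe are printed 5′ to 3′ on the strand of the gene. Capitals mark GAGGAA or its reverse complement TTCCTC, a core that PU.1 can bind. Clec7a and Apoe were picked from the genes that rose and held these letters, so their matches are there by selection. The C1qc window overlaps the annotated span of C1qc given above, whose start differs from the RefSeq start. The windows are chr4:136886201-136886450 for C1qb, chr4:136892915-136893164 for C1qc, chr6:129472780-129473029 for Clec7a and chr7:19699189-19699438 for Apoe, all on the minus strand.
C1qb: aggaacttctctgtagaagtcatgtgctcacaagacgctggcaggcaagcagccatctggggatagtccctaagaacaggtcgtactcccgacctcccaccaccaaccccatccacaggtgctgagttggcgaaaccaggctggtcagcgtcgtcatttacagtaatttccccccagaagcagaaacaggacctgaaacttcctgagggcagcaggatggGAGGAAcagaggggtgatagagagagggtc
C1qc: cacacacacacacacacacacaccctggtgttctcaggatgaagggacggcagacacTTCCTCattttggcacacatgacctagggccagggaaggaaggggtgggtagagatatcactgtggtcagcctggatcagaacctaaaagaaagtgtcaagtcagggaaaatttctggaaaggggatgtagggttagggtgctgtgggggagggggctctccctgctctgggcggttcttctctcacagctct
Clec7a: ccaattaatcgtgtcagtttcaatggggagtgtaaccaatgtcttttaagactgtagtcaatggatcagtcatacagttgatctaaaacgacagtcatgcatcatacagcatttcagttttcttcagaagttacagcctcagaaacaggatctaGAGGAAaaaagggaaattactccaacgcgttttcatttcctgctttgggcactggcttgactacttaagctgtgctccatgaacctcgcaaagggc
Apoe: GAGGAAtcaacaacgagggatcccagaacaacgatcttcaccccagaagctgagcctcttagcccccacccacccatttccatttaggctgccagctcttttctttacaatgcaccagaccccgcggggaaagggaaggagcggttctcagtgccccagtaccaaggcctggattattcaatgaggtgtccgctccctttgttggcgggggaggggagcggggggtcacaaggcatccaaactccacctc
The marked letters began 30 bases before the start of C1qb, 193 before that of C1qc, 96 before that of Clec7a and 250 before that of Apoe. RefSeq windows of 250 bases were at hand for 25 of the 39 genes, and GAGGAA on either strand was found in 13 of them and in 6 of the 12 that rose. By window, 16 of 32 member promoters held it (50%), against 7639 of 32851 promoters in all (23.3%). The 32 windows came from 25 genes, so some genes counted more than once. Among the genes that rose, Cd68, Marco, Mrc1, Apoe, C1qb and Clec7a had the letters and Lyz2, Cybb, Mpeg1, Tlr2, Ear2 and Zbtb46 did not. Among the other members with a window, Aif1, C1qc, Clec4a1, F13a1, Ly6c2, Plac8 and Trem2 had them. Cx3cr1, Flt3, Ms4a6c, Ms4a7, Siglech and Xcr1 did not. The letters were thus found among members that rose and members that did not. A match is a description of the letters and not a binding site. Promoter sequences were not used for Csf1r, Adgre1, Cd14, C1qa, Tlr4, Tlr7, Sirpa, Clec4n, Clec10a, Fn1, Spi1, Lst1, Tyrobp and Itgad.

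Among lineage receptors and PU.1, 1 of 4 genes rose. Csf1r, the receptor for the macrophage growth factor CSF1 and IL-34, had 818, 694, 1369 and 1825 counts and rose by 1.14 (SE 0.169, adjusted p = 0.00418). Both KO-labelled libraries were above both WT libraries. Adgre1, which encodes F4/80, had 237, 209, 299 and 466 counts (0.84, SE 0.286, adjusted p = 0.0840), also with no overlap, and passed the threshold only without ICAM-1 KO 1 (1.08, adjusted p = 0.0493). Spi1, which encodes PU.1, had 485, 360, 480 and 634 counts (0.46, SE 0.238, adjusted p = 0.231). Its normalized count was 16.0 in WT 1 and 16.7 in ICAM-1 KO 1, so the groups barely parted. Cx3cr1, the fractalkine receptor of monocytes and some tissue macrophages, had 351, 458, 494 and 389 counts (0.20, SE 0.247, adjusted p = 0.639), and the groups overlapped. The annotated span of Cx3cr1 holds parts of other protein-coding genes on both strands, and the strand setting of the counting was not given in the sources used here.

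Of 8 pattern recognition receptors, 5 were tested and 3 rose, each more than 2-fold. Cd14, the co-receptor for bacterial lipopolysaccharide, had 903, 933, 1788 and 2173 counts. Its normalized count was 29.7 ± 0.190 in WT and 65.7 ± 5.07 in the KO-labelled libraries (mean ± SD, n = 2 each), a rise of 1.17 (SE 0.131, adjusted p = 0.00140). Clec7a, the beta-glucan receptor Dectin-1, had 560, 646, 1399 and 1621 counts and rose by 1.39 (SE 0.148, adjusted p = 0.00117). Both genes showed small gaps within groups and no overlap between them. Tlr2, a receptor for bacterial lipoproteins, had 198, 99, 316 and 510 counts and rose by 1.53 (SE 0.370, adjusted p = 0.0287), with a wider spread in each group. It missed the threshold without WT 2 (1.09, adjusted p = 0.128) or ICAM-1 KO 2 (1.20, adjusted p = 0.0750), and passed at 2.15 without WT 1 (adjusted p = 0.0358).

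Tlr4, the lipopolysaccharide receptor that works with CD14, had 48, 101, 213 and 107 counts (1.17, SE 0.508, adjusted p = 0.157). ICAM-1 KO 2 was barely above WT 2, and without ICAM-1 KO 2 Tlr4 reached an adjusted p of 0.0398 at 1.63, while it stood at 0.54 without ICAM-1 KO 1 and 1.78 without WT 2 (adjusted p = 0.642 and 0.163). Clec4n, the fungal receptor Dectin-2, had 154, 141, 134 and 269 counts (0.51, SE 0.377, adjusted p = 0.399), and only ICAM-1 KO 2 stood above the WT libraries. Tlr7, an endosomal receptor for single-stranded RNA, had 9, 22, 142 and 20 counts, so its high value came from ICAM-1 KO 1 alone. The C-type lectin Clec10a had 27, 61, 54 and 43 counts, and Clec4a1 had 33, 32, 46 and 18. Tlr7, Clec10a and Clec4a1 were not tested, and the groups overlapped for each of them.

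Among myeloid adaptors and signalling genes, 2 of 4 rose, both by less than 2-fold. Sirpa, the receptor for CD47 that restrains phagocytosis, had 600, 673, 966 and 1138 counts and rose by 0.79 (SE 0.159, adjusted p = 0.0147). Tyrobp, the ITAM adaptor DAP12, had 912, 844, 1140 and 1386 counts and rose by 0.59 (SE 0.150, adjusted p = 0.0344). The groups were apart for both genes. Sirpa missed the threshold without WT 1 (adjusted p = 0.0671) or ICAM-1 KO 2 (0.0512), and Tyrobp without WT 1 (0.0714), WT 2 (0.132) or ICAM-1 KO 2 (0.148). Aif1, which encodes the actin-binding protein IBA1, had 67, 103, 115 and 166 counts (0.79, SE 0.398, adjusted p = 0.219). Lst1, a leukocyte gene of the MHC class III region, had 209, 175, 111 and 207 counts (-0.21, SE 0.359, adjusted p = 0.742), with ICAM-1 KO 1 the lowest library.

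**Figure D2:**
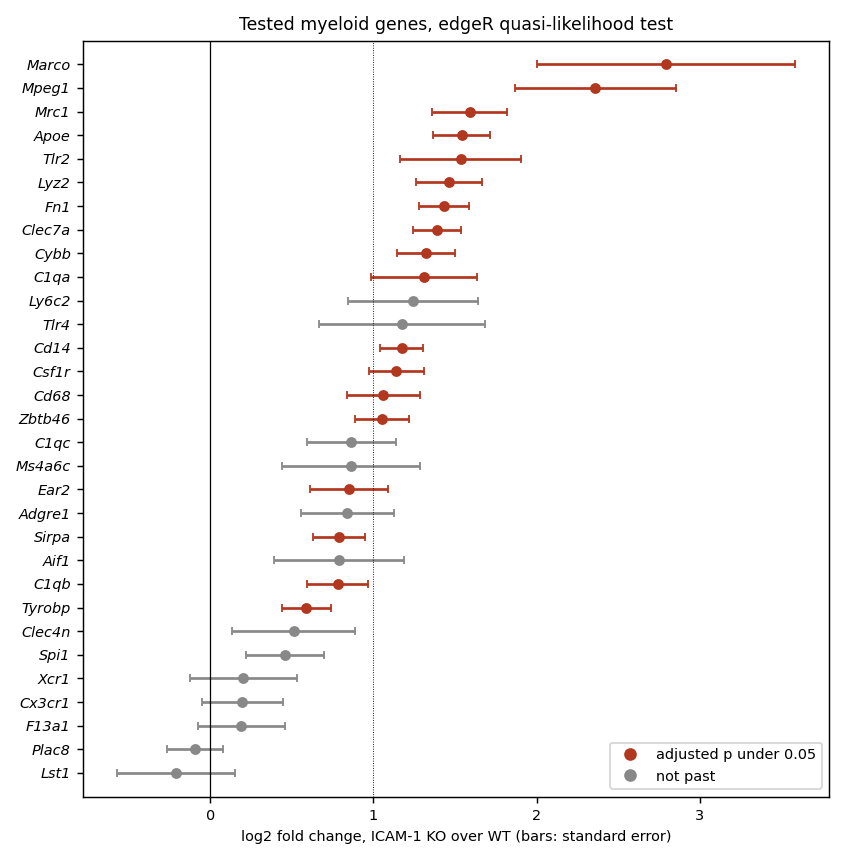
Log2 fold change of ICAM-1 KO over WT for the 31 tested myeloid genes, with a solid line at 0 and a dotted line at 2-fold. Bars show the standard error derived from the F statistic of the edgeR test. The 18 genes past an adjusted p of 0.05 all lie to the right of 0, from Tyrobp at 0.59 to Marco at 2.79, and Plac8 and Lst1 are the tested genes to the left of it.

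The monocyte-linked genes gave 1 call among 5, and it rested on a gene with a near-identical copy. Ear2, an eosinophil-associated ribonuclease that lung myeloid cells also express, had 419, 773, 969 and 1079 counts and rose by 0.85 (SE 0.240, adjusted p = 0.0473). Its paralog Ear1 had 137, 243, 51 and 97 counts (-1.29, SE 0.443, adjusted p = 0.0854), with both KO-labelled libraries below both WT libraries. The aligned coding sequences of Ear2 and Ear1 in the GENCODE M21 transcripts were 95.1% identical, with 23 of 468 columns different and an identical run of 96 bases, so reads can be divided between them. Summed over both genes the counts were 556, 1016, 1020 and 1176, and the sum did not pass (0.55, SE 0.235, adjusted p = 0.152). Ear2 alone also missed the threshold without WT 1 (0.50, adjusted p = 0.144).

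Ly6c2, a surface marker of inflammatory monocytes, had 252, 934, 1293 and 1369 counts (1.24, SE 0.400, adjusted p = 0.0714). WT 1 was far below WT 2, and the groups did not overlap. The log2 fold change was 0.61 without WT 1 (adjusted p = 0.0732), 2.44 without WT 2 (adjusted p = 0.00207), 1.23 without ICAM-1 KO 1 (adjusted p = 0.0189) and 1.25 without ICAM-1 KO 2 (adjusted p = 0.0132). Its neighbour Ly6c1, expressed by endothelium as well, had 462, 591, 1323 and 1480 counts and rose by 1.48 (SE 0.162, adjusted p = 0.00131). Ly6c2 and Ly6c1 were 97.7% identical over 393 coding columns, with an identical run of 188 bases. Their summed counts were 714, 1525, 2616 and 2849, and the sum rose by 1.36 (SE 0.254, adjusted p = 0.0112).

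The first 120 coding bases of both pairs, from the GENCODE M21 transcripts, show how few positions can assign a read. Capitals mark the bases at which the members of a pair differ.
Ear2: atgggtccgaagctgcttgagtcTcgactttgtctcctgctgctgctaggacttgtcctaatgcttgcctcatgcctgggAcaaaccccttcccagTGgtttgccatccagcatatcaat
Ear1: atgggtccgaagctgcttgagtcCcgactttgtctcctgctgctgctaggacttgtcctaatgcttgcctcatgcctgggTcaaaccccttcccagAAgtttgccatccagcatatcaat
Ly6c2: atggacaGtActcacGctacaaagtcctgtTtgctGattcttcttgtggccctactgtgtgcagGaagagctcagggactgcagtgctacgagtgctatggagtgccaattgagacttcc
Ly6c1: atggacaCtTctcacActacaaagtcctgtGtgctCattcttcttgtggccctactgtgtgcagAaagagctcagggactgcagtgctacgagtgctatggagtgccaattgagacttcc
In this window 4 bases differed between Ear2 and Ear1 and 6 between Ly6c2 and Ly6c1. Lyz2 also has a close copy, Lyz1, chosen for description after its values were seen. Their coding sequences were identical at 422 of 444 columns. Lyz1 had 12, 73, 2 and 327 counts, a small amount beside Lyz2 in every library, as the plot of the 3 pairs shows.

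**Figure D3:**
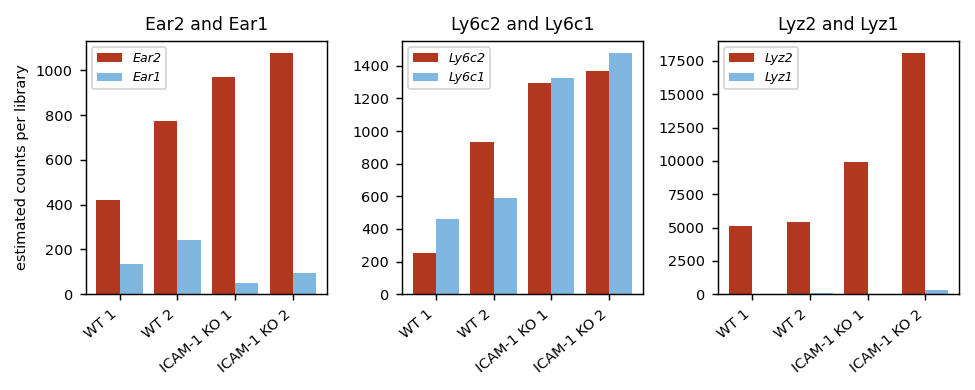
Estimated counts per library (bars from 0) of Ear2 and Ear1, Ly6c2 and Ly6c1, and Lyz2 and Lyz1. Ear1 is lower in both ICAM-1 KO libraries while Ear2 is higher, Ly6c2 and Ly6c1 are both higher there, and Lyz1 stays at 327 counts or fewer.

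Plac8, a small cysteine-rich protein of monocytes and lymphocytes, had 3786, 5991, 3961 and 4785 counts (-0.09, SE 0.171, adjusted p = 0.766), and the groups overlapped. The MS4A family member Ms4a6c had 122, 197, 164 and 392 counts (0.86, SE 0.424, adjusted p = 0.208), also with overlap, and passed without ICAM-1 KO 1 (1.32, adjusted p = 0.0320) but stood at 0.16 without ICAM-1 KO 2 (adjusted p = 0.883). Its relatives Ms4a6b, with 555, 897, 1328 and 1842 counts, and Ms4a6d, with 67, 191, 275 and 385, rose by 1.19 (adjusted p = 0.00980) and 1.42 (adjusted p = 0.0495). Ms4a7 had 14, 30, 43 and 35 counts and was not tested.

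Of 4 dendritic cell genes and the integrin gene Itgad, 1 rose. Zbtb46, a transcription factor of conventional dendritic cells that endothelium also expresses, had 467, 520, 924 and 1032 counts and rose by 1.05 (SE 0.168, adjusted p = 0.00594). Each group was tight and the groups were apart. Xcr1, the XCL1 receptor of cross-presenting dendritic cells, had 313, 247, 213 and 406 counts (0.20, SE 0.326, adjusted p = 0.723), with the lowest and the highest value both in KO-labelled libraries. Flt3, the receptor for the dendritic cell growth factor FLT3L, had 45, 69, 73 and 70 counts, and Siglech, a marker of plasmacytoid dendritic cells, had 26, 8, 31 and 69. Neither was tested, and on normalized counts neither overlapped between groups, by a margin of 2.22 in WT 2 against 2.26 in ICAM-1 KO 2 for Flt3. Itgad, the integrin alpha D of some tissue macrophages, had 0 counts in both WT libraries and 20 and 15 in the KO-labelled libraries. With each WT library set to a floor of 3 counts, this was 6.08-fold, a figure without counting error. In the fit without the filter Itgad did not pass (adjusted p = 0.154, edgeR quasi-likelihood test). Its annotated span also holds Cox6a2 on the other strand and a pseudogene on its own strand, and the strand setting of the counting was not given.

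The sort should have removed cells with CD11b, CD11c or Gr-1, and RNA of these antigens was read beside the members. Itgam, which encodes CD11b, had 238, 270, 729 and 709 counts and rose by 1.57 (SE 0.212, adjusted p = 0.00290). Itgax, which encodes CD11c, had 91, 186, 311 and 361 counts and rose by 1.35 (SE 0.338, adjusted p = 0.0333). Ly6g, an antigen of the Gr-1 antibody, had 0, 13, 14 and 1 counts. RNA for both integrins was thus present in every library and higher in those labelled ICAM-1 KO.

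Of all 15 genes listed as gate antigens and found in the count table, the myeloid ones included, 8 rose and 0 fell. Thy1 is on that list, though the sort described for these libraries did not use it. Outside the myeloid antigens, 5 rose and 6 did not pass. Cd4 had 675, 862, 1770 and 2527 counts and rose by 1.55 (adjusted p = 0.00143), and Cd5 had 775, 873, 1952 and 2678 and rose by 1.55 (adjusted p = 0.000711). Trbc1 and Trdc, constant regions of T cell receptors, rose by 0.48 and 2.42, and Ptprc, which encodes CD45, by 0.39. Ly6c1, described above, also rose. Trbc2, Cd3e, Fcer1a, Thy1, Il7r and Il1rl1 did not pass, with log2 fold changes of 0.25, 0.17, 0.30, -0.06, 0.28 and 0.21.

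Markers of several other cell types, though not of all, also stood higher in the KO-labelled libraries. All 12 endothelial genes rose, with a median log2 fold change of 1.42, and their summed normalized count was 265 to 277 in the WT libraries and 646 to 653 in those labelled ICAM-1 KO. Emcn among them had normalized counts of 1.45 and 1.80 in WT and 7.05 and 4.94 in the KO-labelled libraries. It met the filter on low values only through the latter, so its call carries that selection. Calls of genes with low counts in the other lists can carry it too. Among T cell genes 7 of 12 rose (sums of 691 to 838 and 1255 to 1483), and among B and plasma cell genes 7 of 12 (1631 to 4067 and 6780 to 10281). Of 12 alveolar and airway epithelial genes, 9 were tested and 5 rose (191 to 422 and 545 to 1376), led in level by Scgb1a1, which did not pass (0.43, adjusted p = 0.651), and Sftpc, which had 731, 17, 7290 and 16847 counts. Of 12 neutrophil genes, which overlap with monocytes in use, 10 were tested and 6 rose (105 to 171 and 190 to 212). Of 10 mesenchymal genes, 0 rose and 0 fell of 7 tested, with summed normalized counts of 21.9 and 66.2 in WT and 54.4 and 93.4 in the KO-labelled libraries. The summed normalized count of the 39 members was 676 and 759 in WT and 1265 and 1551 in the KO-labelled libraries. The part of any such cells in the members' fold changes was not tested.

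The ILC2 list leaned the other way, with 1 of 17 genes higher, 6 lower and 10 not past. Gata3 and Icos did not pass (-0.14 and 0.07, adjusted p = 0.363 and 0.743, edgeR quasi-likelihood test). Of its most abundant genes, Arg1 had 49707, 48128, 30565 and 29019 counts and fell by 0.65 on the log2 scale (adjusted p = 0.00371), Il5 had 31457, 39534, 19246 and 20581 and fell by 0.76 (adjusted p = 0.00274), and Areg did not pass (-0.23, adjusted p = 0.170). The chart of gene lists sets the 39 members beside these.

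**Figure D4:**
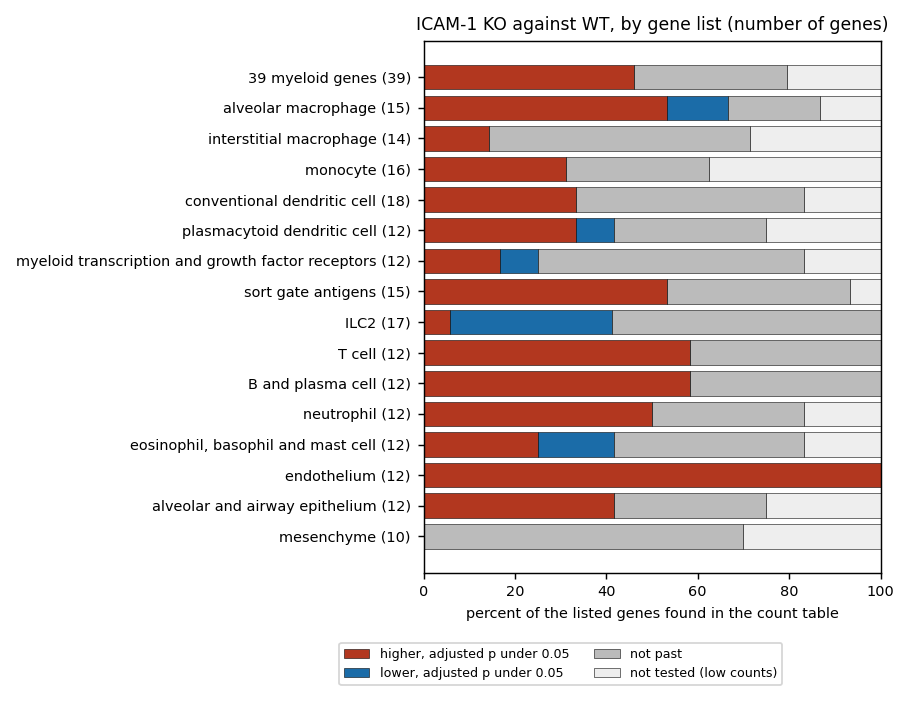
Percent of the genes of each list found in the count table that were higher, lower or not past an adjusted p of 0.05, or not tested, with the number of genes in parentheses. Of the 39 members 18 were higher, beside 12 of 12 endothelial genes, 8 of 15 alveolar macrophage genes, 0 of 10 mesenchymal genes and 1 of 17 ILC2 genes.

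Further genes of the same cells, from lists apart from the 39, gave a mixed picture. Of 15 alveolar macrophage genes, 13 were tested, 8 rose and 2 fell. With a fold change of at least 2 as well, 8 rose and 0 fell. Chil3, the chitinase-like protein Ym1 and the most abundant of them, had 6391, 13351, 30313 and 44679 counts and rose by 1.99 (SE 0.277, adjusted p = 0.00324). Fabp5, a fatty acid binding protein, had 6598, 8149, 4899 and 5537 counts and fell by 0.43 on the log2 scale (adjusted p = 0.0280). Pparg, which macrophages share with ILC2s, had 6915, 6979, 4135 and 4451 counts and fell by 0.63 (adjusted p = 0.00312). Fabp5 and Pparg were the 2 that fell. Among less abundant genes of these cells, named after their values were seen, Fabp4 had 21, 41, 167 and 129 counts and Atp6v0d2 had 85, 75, 301 and 423. They rose by 2.32 and 2.24 (adjusted p = 0.0179 and 0.00422), and Fabp4 met the filter on low values through the KO-labelled libraries. Siglecf, a defining surface marker of alveolar macrophages, had 57, 32, 46 and 110 counts and was not tested.

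Of 14 interstitial macrophage genes, 10 were tested and 2 rose (Pf4 and Lyve1, named after their values were seen). Its most abundant genes Stab1, Cd63 and Axl did not pass, at 0.05, 0.17 and 0.64 (adjusted p = 0.851, 0.380 and 0.0508). Among 16 monocyte genes, 10 were tested and 5 rose. S100a6 rose by 0.37 (adjusted p = 0.0240), while Nr4a1 and S100a4, the other abundant genes of that list, stood at 0.08 and -0.03 (adjusted p = 0.719 and 0.864). Of 18 conventional dendritic cell genes, 15 were tested and 6 rose, 4 of them by at least 2-fold. Cd24a rose by 0.92 (adjusted p = 0.00964), while Ccr7 at 0.13 and Irf4 at -0.59 did not pass (adjusted p = 0.543 and 0.0923). Most genes named from these lists were picked by abundance, which does not make a gene specific to a cell type.

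Plasmacytoid dendritic cell genes included 9 tested of 12, of which 4 rose and 1 fell. Bst2, an interferon-induced surface protein, had 2529, 2750, 1045 and 1323 counts and fell by 1.09 on the log2 scale (adjusted p = 0.00146), while Ly6d and Pld4 rose by 1.17 and 0.93. Of 12 myeloid transcription factors and growth factor receptors, 10 were tested, 2 rose and 1 fell. Id2, which ILC2s also need, fell by 0.56 (adjusted p = 0.00743), and Cebpb and Runx1 did not pass (0.39 and 0.18, adjusted p = 0.262 and 0.358). The median log2 fold change was 1.35 for the tested alveolar macrophage genes, 0.82 for interstitial macrophage, 0.42 for monocyte, 0.44 for conventional dendritic cell and 0.71 for plasmacytoid dendritic cell genes, against 0.01 over all genes tested.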

How the data were processed

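RNA from 4 sorted lung ILC2 pools (2 WT, 2 ICAM-1 KO, 10 ng each) was sequenced. Per the labels and the study's methods, the authors aligned reads to mm10 with STAR (GENCODE M20) and quantified them in Partek software. The authors deposited estimated counts per gene, of which 52.3% were exactly whole as written (no tolerance), and a normalized signal scaled by the upper quartile, which equals the count plus 1 times 1 factor per library. The labels' processing notes list CASAVA 1.8.2, STAR 3.5.3 and Partek, while the study's methods name another STAR version, so the version used is uncertain. The strand setting of the counting was not given in the sources used here.

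Estimated counts were rounded to whole numbers. The 11711 genes whose normalized counts averaged 1 or more and summed to 10 or more were tested with edgeR 4.0.16 (quasi-likelihood test, upper quartile factors, R 4.3.3), with Benjamini-Hochberg adjustment over all of them and a threshold of 0.05. On simulated data for this comparison (11711 genes, 200 changed, 2 draws), 69% of genes changed by a log2 value of 1 and 88% of those changed by 2 were recovered, with 4.66% of calls false. The changed genes were drawn from better-counted genes, equally up and down, and the spread between libraries depended on expression level alone. These rates may therefore not hold for genes with low counts or unequal replicates. Alternatives were TMM factors, DESeq2 1.42.0, limma 3.58.1 on log2 of the normalized count plus 1, other filters on low counts, the older quasi-likelihood form, a replicate block and leaving out each library. Sums with Ear1 and Ly6c1 were added after seeing the data. Replicates correlated at 0.978 in both groups (log2 CPM plus 1), and their counts differed beyond sampling noise (chi-square per degree of freedom 29.2 and 26.5). Total counts of 24796148 to 28782471 set the precision. Wilson intervals used a 95% level.

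The members and lists were chosen with earlier results of these data known. Named genes are all 39 members, Icam1, the gate antigens, up to 3 most abundant genes of the other lists described, and close relatives of members. Gata3, Icos and Siglecf were added as cell type markers. Some further genes were named after their values were seen, as stated where they appear. Coordinates are those of the count table (mm10), promoters are from RefSeq, and coding sequences and overlaps are from GENCODE M21, whose coordinates matched for 36 of the 39 members. Levels per length used the exon length in that annotation.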

Additional observations from a re-analysis of the deposited data

How the results depend on the processing

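The members that rose numbered 18 as reported, 18 with TMM factors, 18 with DESeq2, 18 with at least 10 counts in every library, 17 with limma, 15 with filterByExpr and 15 with the older quasi-likelihood form, and the number that fell was 0 in each. Without a filter on low counts, which tests 22158 genes, 9 members rose (9 by at least 2-fold), all genes gave 334 higher and 201 lower calls, and the members' median log2 fold change was 1.01. That median was 0.88 with at least 10 counts in every library, 1.02 with filterByExpr and 0.88 with limma (1.05 as reported), and DESeq2 called 930 genes lower (582 as reported). Leaving out 1 library at a time gave 10 to 19 members higher (10 to 16 by at least 2-fold), 479 to 948 genes higher and 158 to 388 lower over all genes, and medians of 0.87 to 1.10. The lone sample of the reduced group is then assumed to vary like the other group. Of the 18 members that rose, Csf1r, Mrc1, Lyz2, Cd14, Cybb, Clec7a, Fn1, Apoe and Zbtb46 stayed past the threshold under all 12 alternatives, and the other 9 missed it in at least 3, each of them without the filter. The cause was not tested. Signs turned for members that did not pass: leaving out 1 library gave Plac8 -0.36 to 0.24 (positive without WT 2), Cx3cr1 -0.038 to 0.41 (negative without ICAM-1 KO 1), Lst1 -0.67 to 0.12 (positive without ICAM-1 KO 1), Clec4n -0.020 to 0.88 and Xcr1 -0.28 to 0.55 (both negative without ICAM-1 KO 2).

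The libraries share replicate numbers, and deviations of same-numbered libraries did not move together over the genes tested (correlation -0.03). With 2 libraries a group, this cannot show whether same-numbered libraries were handled together. With the replicate block, 19 members rose (15 by at least 2-fold), the added call being Ly6c2 (1.38, adjusted p = 0.0253), and all genes gave 1077 higher and 638 lower calls with a member median of 1.05. Depth and 2 libraries a group limit the low genes, since 8 members, none above 142 counts in a library, went untested.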

Other observations

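Other white cell genes with granules also differed between the libraries. Of 12 eosinophil, basophil and mast cell genes, 10 were tested, 3 rose and 2 fell. Epx and Prg2, which encode granule proteins of eosinophils, were the ones that fell and are named after their values were seen. Epx had 1027 and 739 counts in WT and 0 and 0 in the KO-labelled libraries, and Prg2 had 1583, 1041, 33 and 118 (adjusted p = 0.000416 and 0.000711, edgeR quasi-likelihood test). The eosinophil receptor genes Ccr3 and Il5ra, also named after their values were seen, went the other way. Ccr3 had 156, 265, 419 and 803 counts and rose by 1.60 (adjusted p = 0.0192, same test). Il5ra had 55, 71, 191 and 268 counts and rose by 1.93 (adjusted p = 0.0132, same test). With normalized counts of 1.85 and 2.28 in WT, Il5ra met the filter on low values through the KO-labelled libraries. The abundant genes Cpa3 and Mcpt4, of mast cells, did not pass (0.40 and 0.45, adjusted p = 0.0845 and 0.189), and Hdc, the enzyme that makes histamine, rose by 0.67 (adjusted p = 0.00705). The member Ear2 and its paralog Ear1 are named for eosinophils too, and Ear1 also stood lower in both KO-labelled libraries.

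Relatives of members among the C-type lectins were read as well. Clec4a3 had 195, 351, 331 and 448 counts in WT 1, WT 2, ICAM-1 KO 1 and ICAM-1 KO 2 (0.58, SE 0.303, adjusted p = 0.236), and Clec4a2 had 106, 63, 163 and 251 (1.35, SE 0.400, adjusted p = 0.0546). Both had more counts than the member Clec4a1 in each library.

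Among neutrophil genes, S100a9 had 756, 713, 1893 and 1594 counts and S100a8 had 559, 523, 1461 and 971, and they rose by 1.32 and 1.24 (adjusted p = 0.00190 and 0.0118). Mpo, a granule enzyme, had 2433, 690, 225 and 761 counts (-1.62, SE 0.592, adjusted p = 0.101), with WT 1 far above the other libraries.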
